A study of Mus musculus with 8 samples.

Results

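The genes described here are 9 markers and signalling genes of the striatal projection neuron, Drd1, Drd2, Adora2a, Gpr6, Rgs9, Adcy5, Ppp1r1b, Pde10a and Six3, as they appeared in RNA of the mouse hippocampus. They were chosen by name, and each was found through the RefSeq accession of its probe on the array. They are 9 of 21364 genes that could be named, all 9 passed the detection filter, and 16616 genes did. In all, 15 probes read these genes.

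RNA came from the hippocampi of 8 female mice, the nontransgenic littermates of an APP/PS1 line that carries the APPswe695 and PSEN1dE9 transgenes, kept on a C57BL/6J background. No mouse in the comparison carried the transgenes. The 4 Control mice were untreated and 19 weeks old, and the 4 Hydroxyurea mice drank hydroxyurea at 45 mg/kg/day for 10 weeks (2.5 months), beginning at 9 to 14 weeks of age. Of the treated mice, Hydroxyurea 1 and 2 were 24 weeks old at the end and Hydroxyurea 3 and 4 were 19 weeks old. Hydroxyurea blocks ribonucleotide reductase, which makes the building blocks of DNA. The labels give no tissue of the striatum, and per the series title the study concerned hippocampal neurons and memory. Each mouse gave 1 array of Agilent's 1-colour type, a glass slide of short DNA probes whose brightness reports the amount of labelled RNA.

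Striatal projection neurons fall into a direct pathway, whose cells carry the D1 dopamine receptor, and an indirect pathway, whose cells carry the D2 receptor together with the adenosine receptor encoded by Adora2a. The D1 and adenosine receptors raise cyclic AMP and the D2 receptor lowers it. In these neurons adenylyl cyclase 5 makes much of the cyclic AMP, the phosphodiesterase PDE10A degrades it, RGS9 shortens G protein signals, and DARPP-32, the product of Ppp1r1b, inhibits protein phosphatase 1 once protein kinase A has phosphorylated it. Six3 is a homeodomain transcription factor of the forebrain that acts in the development of indirect pathway neurons. The hippocampus lies close to the septum, thalamus and the choroid plexus, and its own neurons also express some of the 9 genes.

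The stretches just upstream of the transcription start are shown for 4 genes. Gpr6 is shown because it alone, of the genes with a window, held a cyclic AMP response element, Rgs9 and Adcy5 because their values were the most alike across the mice, and Six3 because it differed most between the groups. Each is the 250 bases before the start in RefSeq on GRCm38.p6, written 5′ to 3′ on the strand of the gene. Capitals mark the core of a cyclic AMP response element, TGACG, and the GC box, GGGCGG, on either strand; Six3 held neither and has no capitals.
Gpr6, chr10:41072291-41072540, minus strand: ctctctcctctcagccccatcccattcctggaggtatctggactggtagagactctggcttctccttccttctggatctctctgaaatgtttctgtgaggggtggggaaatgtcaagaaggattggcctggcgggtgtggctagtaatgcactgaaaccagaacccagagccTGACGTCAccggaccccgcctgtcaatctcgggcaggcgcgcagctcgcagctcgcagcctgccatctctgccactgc
Rgs9, chr11:109298182-109298431, minus strand: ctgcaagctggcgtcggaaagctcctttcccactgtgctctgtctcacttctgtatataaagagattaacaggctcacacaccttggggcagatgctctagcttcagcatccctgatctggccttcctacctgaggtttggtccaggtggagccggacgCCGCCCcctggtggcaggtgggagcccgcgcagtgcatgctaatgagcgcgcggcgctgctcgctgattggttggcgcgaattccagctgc
Adcy5, chr16:35154614-35154863, plus strand: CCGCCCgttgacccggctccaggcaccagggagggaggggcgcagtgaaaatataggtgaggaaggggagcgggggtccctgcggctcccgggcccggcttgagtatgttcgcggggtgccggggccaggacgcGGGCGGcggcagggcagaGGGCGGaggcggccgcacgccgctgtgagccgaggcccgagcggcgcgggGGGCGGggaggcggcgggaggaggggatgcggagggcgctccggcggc
Six3, chr17:85620584-85620833, plus strand: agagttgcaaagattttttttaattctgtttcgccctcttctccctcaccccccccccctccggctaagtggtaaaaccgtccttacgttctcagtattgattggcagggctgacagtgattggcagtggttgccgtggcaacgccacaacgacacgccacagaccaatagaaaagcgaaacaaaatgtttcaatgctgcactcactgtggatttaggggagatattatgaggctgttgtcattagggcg
In the table of promoters 7 of the 9 genes had an entry, with 9 windows between them. The Gpr6 window carried the full palindrome TGACGTCA, in which the core matches on both strands, and this palindrome was found in 1.546% of 32851 windows of the same length. The core alone was found in 17.77% of windows, and in 1 of the 9 windows of these genes. A GC box stood in 5 of the 9 windows and in 32.74% of all windows, with 4 copies in Adcy5, 2 in Drd2 and 1 in Rgs9. These matches describe the letters and no binding was measured.

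Values below are scaled log2 signals, log2 of each processed signal after the 75th percentile of its array was subtracted, so that 0 is the upper-quartile signal of the array. They compare mice for 1 probe and give no order between genes. The 75th percentile of signal was 1677 to 2417 on the Control arrays, 1052 on Hydroxyurea 2 and 1680 to 2162 on the other treated arrays. On Control 1 replicate spots varied by a median of 12.9%, against 3.72% to 4.44% on the others. The arrays shared a slide and a scan, with the Control arrays in one row and the treated arrays in the other, so the row and the treatment cannot be told apart. Prox1, a marker of dentate granule cells, and Wfs1, a marker of CA1 pyramidal cells, were well above background on all 8 arrays. So were Penk and Tac1, the enkephalin and tachykinin precursor genes of the striatum that hippocampal neurons also use, while Drd2 was well above background on 7 arrays and Six3 on 7.

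Across the group comparison, none of the 9 genes passed the threshold, an adjusted p under 0.05 in limma, and none of the 16616 genes tested did (0.0% called). The 9 genes read higher in Hydroxyurea for 7 and lower for 2, where 48.7% of all genes tested read higher, and the small differences of Gpr6, Rgs9, Adcy5 and Pde10a turned direction under other settings. Their median log2 fold change was 0.17, beside a median of -0.0038 over all genes tested. None of the 9 had an unadjusted limma p under 0.05, where 9.89% of all genes tested had one, 3.53% higher and 6.36% lower. None had groups that did not overlap, where 7.5% of all genes tested did. With 4 mice against 4 an exact two-sided permutation test cannot give a p below 0.0286.

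**Figure D1:**
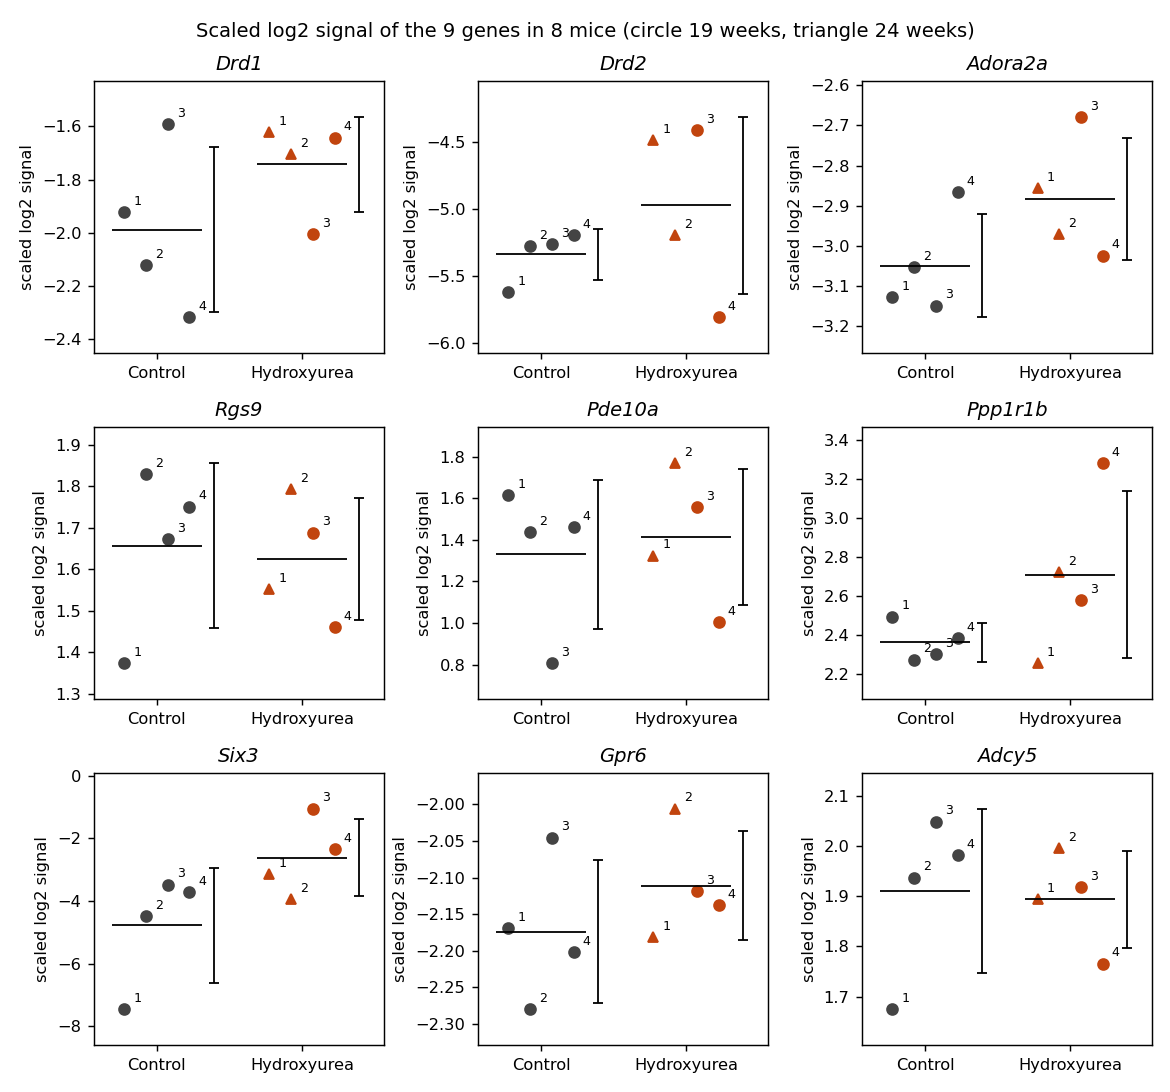
Scaled log2 signal of each of the 9 genes (vertical axis, log2 units, its own range in each panel) in the 4 Control and the 4 Hydroxyurea mice, numbered by replicate; circles are mice of 19 weeks, triangles of 24 weeks, horizontal lines group means and bars 1 SD to either side of the mean. The groups overlap in every panel, and Six3 runs from -7.44 in Control 1 to -1.05 in Hydroxyurea 3.

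Among the receptors, Drd1, which encodes the D1 dopamine receptor and marks the direct pathway, read -1.92, -2.12, -1.59 and -2.32 in Control 1 to 4, against -1.62, -1.71, -2.01 and -1.64 in Hydroxyurea 1 to 4. All 4 treated mice lay above the Control median and none above the highest Control, Control 3. The log2 fold change was 0.25 ± 0.16 (SE; limma adjusted p = 0.627, 4 mice per group), with a 95% interval from -0.13 to 0.62. The exact permutation p was 0.257.

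Drd2, the gene of the D2 receptor of the indirect pathway, read -5.62, -5.28, -5.26 and -5.19 in Control 1 to 4, against -4.48, -5.19, -4.41 and -5.81 in Hydroxyurea 1 to 4. The treated mice spread more widely: Hydroxyurea 1 and 3 lay above all Control mice, Hydroxyurea 2 level with the highest Control, and Hydroxyurea 4, where the probe was not well above background, below all of them. The SD was 0.19 in Control and 0.66 in Hydroxyurea. Between the groups the log2 fold change was 0.37 ± 0.30 (SE; limma adjusted p = 0.702, 4 mice per group), with an interval from -0.33 to 1.06 that holds both a fall and a 2-fold rise. Without Hydroxyurea 4 it was 0.65, with a limma adjusted p of 0.627.

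Adora2a encodes an adenosine receptor that shares the indirect pathway neuron with D2. Its signal was -3.13, -3.05, -3.15 and -2.87 in Control 1 to 4, against -2.86, -2.97, -2.68 and -3.02 in Hydroxyurea 1 to 4. Hydroxyurea 1 and 3 lay above the highest Control, as for Drd2, and Hydroxyurea 2 and 4 lay among the Control mice. The difference on the log2 scale was 0.17 ± 0.10 (SE; limma adjusted p = 0.585, 4 mice per group), with an interval from -0.06 to 0.39 and an exact permutation p of 0.114.

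Gpr6, an orphan receptor of indirect pathway neurons that couples to cyclic AMP production, and the gene with the palindrome shown above, was the steadiest of the 9. Control 1 to 4 gave -2.17, -2.28, -2.05 and -2.20, and Hydroxyurea 1 to 4 gave -2.18, -2.01, -2.12 and -2.14. The whole range over 8 mice was 0.27, and the log2 fold change was 0.06 ± 0.07 (SE; limma adjusted p = 0.778, 4 mice per group; interval -0.10 to 0.23). With median centring it was -0.02, so its direction is not settled.

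Behind the receptors, Rgs9, the regulator of G protein signalling that acts on D2 and opioid receptor signals in the striatum, read 1.37, 1.83, 1.67 and 1.75 in Control 1 to 4, against 1.55, 1.79, 1.69 and 1.46 in Hydroxyurea 1 to 4. Control 1 was lowest, and the treated mice lay within the Control range. Hydroxyurea minus Control came to -0.03 ± 0.12 (SE; limma adjusted p = 0.938, 4 mice per group), with an interval from -0.30 to 0.24. Another probe of the same transcript differed by -0.04 between the groups, and the probe of a further transcript by -0.07.

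Adcy5, the cyclase, read 1.68, 1.94, 2.05 and 1.98 in Control 1 to 4, against 1.89, 1.996, 1.92 and 1.77 in Hydroxyurea 1 to 4. As for Rgs9, Control 1 was lowest and Hydroxyurea 4 next. On the log2 scale the group difference was -0.02 ± 0.09 (SE; limma adjusted p = 0.962, 4 mice per group; interval -0.24 to 0.20). The other 2 probes of the gene differed by 0.04 and 0.03.

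Ppp1r1b, the gene of DARPP-32, read 2.49, 2.27, 2.30 and 2.38 in Control 1 to 4, against 2.25, 2.72, 2.58 and 3.28 in Hydroxyurea 1 to 4. The Control mice lay close together (SD 0.10), Hydroxyurea 2, 3 and 4 lay above all of them, and Hydroxyurea 1 lay below them. The log2 fold change came to 0.35 ± 0.20 (SE; limma adjusted p = 0.574, 4 mice per group), with an interval from -0.11 to 0.80 and an exact permutation p of 0.171. Without Hydroxyurea 4, the highest mouse, the difference was 0.16. It was 0.50 without Hydroxyurea 1 (limma adjusted p = 0.519) and 0.57 among the 19-week mice alone (limma adjusted p = 0.723). All 16 choroid plexus markers tested read higher in Hydroxyurea, with a median log2 fold change of 1.30, none of them past the threshold. Each list was given a score per mouse, the average deviation of its genes from their own means over the 8 mice. The choroid plexus score ran from -2.04 to 0.77 in Control and from -1.16 to 2.71 in Hydroxyurea, and was highest in Hydroxyurea 4. Ttr, the transthyretin of the choroid plexus, was well above background on all 8 arrays. The part of choroid plexus RNA in the Ppp1r1b values was not tested.

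Pde10a, the gene of the phosphodiesterase, read 1.62, 1.44, 0.81 and 1.46 in Control 1 to 4, against 1.32, 1.77, 1.56 and 1.01 in Hydroxyurea 1 to 4. Control 3 and Hydroxyurea 4 were low, 1 in each group, and the other mice of both groups were mixed. The difference came to 0.08 ± 0.22 (SE; limma adjusted p = 0.913, 4 mice per group; interval -0.41 to 0.58). It was -0.05 among the 19-week mice alone and -0.09 without Control 3. A probe of another Pde10a transcript, well above background on all 8 arrays, differed by 0.31 between the groups, and a further one was not well above background on any array.

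Six3 had the widest spread of the 9 genes. Its signal was -7.44, -4.47, -3.48 and -3.72 in Control 1 to 4, against -3.14, -3.94, -1.05 and -2.34 in Hydroxyurea 1 to 4. Hydroxyurea 1, 3 and 4 lay above all Control mice, Hydroxyurea 2 lay among them, and in Control 1 the probe was not well above background. Between the group means the log2 fold change was 2.16 ± 0.96 (SE; limma adjusted p = 0.512, 4 mice per group), with an interval from -0.04 to 4.36, an unadjusted limma p of 0.0536 and an exact permutation p of 0.0857. Without Control 1, the noisiest array, the difference was 1.27, and among the 19-week mice alone it was 3.08. The direction was the same in all 21 other settings that gave a value, and the lowest adjusted p among them was 0.205.

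Markers of regions that border the hippocampus were also higher in some of the same mice. Of the lateral septum markers, 7 of 8 tested read higher in Hydroxyurea, with a median of 0.33, and their score ran from -0.49 to 0.13 in Control and from -0.16 to 0.49 in Hydroxyurea. Of the thalamus and habenula markers, 11 of 13 did, with a median of 0.26. Among Control mice their score lay between -0.25 and 0.06, and Hydroxyurea 1 to 4 gave -0.03, -0.22, 0.62 and 0.15, so Hydroxyurea 3 and 4 lay above the Control range and Hydroxyurea 1, where Six3 was also above all Control mice, lay within it. Of the markers of the ependyma, the ciliated lining of the ventricles, 12 of 13 read higher, with a median of 0.52. Control mice scored between -1.38 and 0.56, and Hydroxyurea 1 to 4 gave 0.59, -0.41, -0.40 and 1.25, so it was within the Control range in Hydroxyurea 3, where Six3 was highest. Over all genes tested 48.7% read higher. Other lists leaned higher by count too, with 7 of 8 blood, 6 of 8 neocortex, 9 of 12 oligodendrocyte and 11 of 15 GABAergic interneuron markers. Their medians were smaller, at 0.08, 0.10, 0.05 and 0.05. Of the dentate gyrus markers 3 of 11 read higher, and of the pyramidal markers 7 of 14. Higher counts were thus not limited to the septum, thalamus and ependyma lists, while the medians differed in size. No marker in these lists passed the threshold. The part of septum, thalamus, ependyma or choroid plexus RNA in the Six3 values was not tested. In bulk tissue, more cells of a kind and more RNA per cell cannot be told apart, for Six3 or for any other of these genes.

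**Figure D2:**
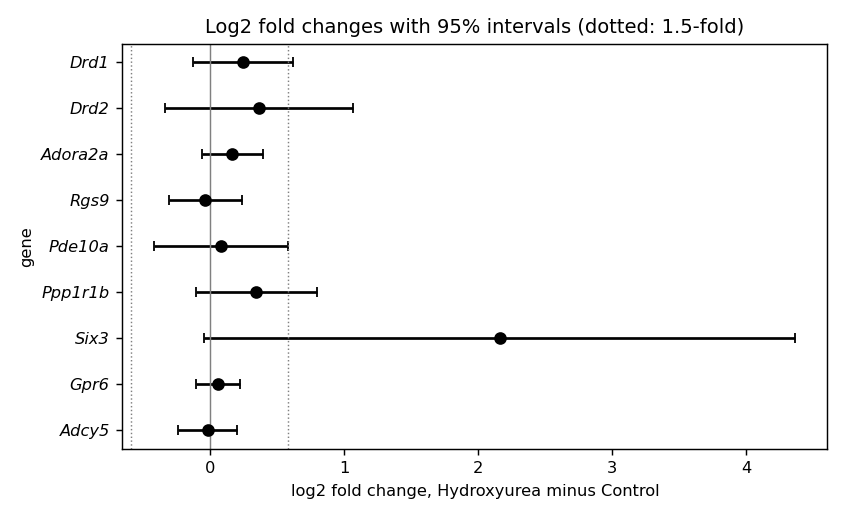
Log2 fold change, Hydroxyurea minus Control, of each of the 9 genes (points) with 95% intervals of the limma fit (bars, n = 4 mice per group); the solid line is no change and the dotted lines a 1.5-fold change either way. All 9 intervals include 0, and that of Six3, from -0.04 to 4.36, is the widest.

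The precision differed between the genes. For Adora2a, Gpr6, Rgs9, Adcy5 and Pde10a the 95% interval excluded a change of 1.5-fold in either direction, as it did for 77.7% of all genes tested. For Pde10a the upper end, 0.58, lay just inside that size, and the interval is that of 1 probe. With the mean of its probes the log2 fold change was 0.20 ± 0.21 (SE), and another probe differed by 0.31, so the bound for Pde10a depends on the probe. For Drd1, Drd2, Ppp1r1b and Six3 the interval reached past 1.5-fold on the higher side, so 4 mice per group do not bound these 4 genes below that size.

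Age at the end of treatment differed within the treated group, and 2 mice of 24 weeks could be set against 2 of 19 weeks. None of the 9 genes passed the limma threshold, nor did any gene tested (0.0% called), and 2.7% of all genes had an unadjusted p under 0.05. Of the 9 genes, 6 read higher at 24 weeks and 3 lower. Six3 was lower at 24 weeks by a log2 difference of -1.84 ± 1.27 (SE; limma adjusted p = 1.0, 2 mice per age), and Ppp1r1b by -0.44 ± 0.25 (adjusted p = 1.0, unadjusted 0.117). Age and treatment were not crossed, since no Control mouse was 24 weeks old.

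The next question was whether the 9 genes moved together from mouse to mouse. Over the 36 pairs of genes, Pearson's r across the 8 mice was above 0 for 22 and below 0 for 14, with a median of 0.20 and a range from -0.48 to 0.85. The median Spearman rho was 0.11. Under an exact permutation test 2 pairs had an unadjusted p under 0.05 and none had a Benjamini-Hochberg adjusted p under 0.05, the smallest being 0.274. The median r turned to -0.06 with median centring and to -0.03 without Control 1. No mouse was high or low for all 9 genes. Hydroxyurea 3 was highest for Drd2, Adora2a and Six3 and above the gene's own mean for 8 of 9, and Control 1 was lowest for Rgs9, Six3 and Adcy5 and above the mean for 1 of 9.

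**Figure D3:**
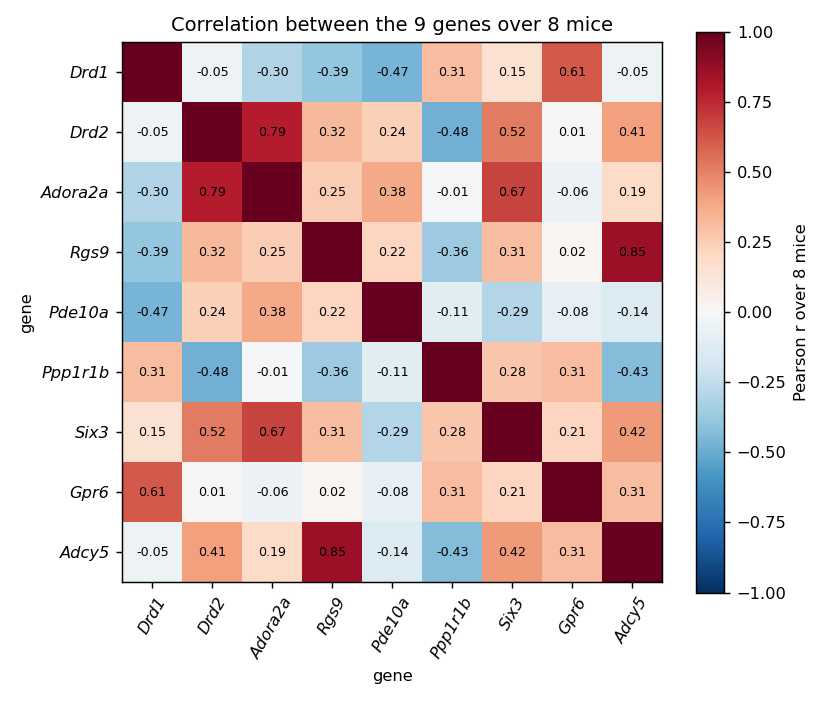
Pearson r between the scaled log2 signals of each pair of the 9 genes over 8 mice (colour and printed value, from blue at -1 to red at 1). Rgs9 with Adcy5 (0.85) and Drd2 with Adora2a (0.79) are the highest, and Drd1 is below 0 with Drd2, Adora2a, Rgs9, Pde10a and Adcy5.

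The receptor genes of the direct and indirect pathways, Drd1 and Drd2, gave r = -0.05, and Drd1 and Adora2a gave r = -0.30. The indirect pathway receptors Drd2 and Adora2a gave r = 0.79 (exact permutation p = 0.0202, adjusted over 36 pairs 0.364) and rho = 0.79 (exact permutation p = 0.0279). Without Hydroxyurea 1 and 3, the mice farthest from the median of Drd2, r was 0.34, and without any 1 mouse it ran from 0.63 to 0.85. Leaving out the most extreme mice also narrows the range of Drd2, so the lower r cannot show that the relation rests on them. Gpr6, the other indirect pathway receptor, gave r = 0.01 with Drd2 and -0.06 with Adora2a, and its highest r was 0.61, with Drd1.

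Rgs9 and Adcy5, the signalling pair whose upstream windows are printed above, gave r = 0.85 (exact permutation p = 0.00761, adjusted 0.274) and rho = 0.69 (exact permutation p = 0.0694). Without Control 1 and Hydroxyurea 4, the mice low for both, r was 0.32 over a narrower range, and without any 1 mouse it ran from 0.72 to 0.93. With the mean of all probes of each gene r was 0.48, so its size depends on the probe chosen. Ppp1r1b, the gene of DARPP-32, gave r = -0.48 with Drd2, -0.36 with Rgs9 and -0.43 with Adcy5 (exact permutation p from 0.227 to 0.397, adjusted 0.844). The rho values were -0.29, -0.17 and -0.17. With Rgs9, r turned to 0.35 without Control 1 and Hydroxyurea 4. With Drd2 it was -0.72 without Hydroxyurea 1 and 3, and with Adcy5 -0.45 without Hydroxyurea 2 and 4.

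Against 12 other striatum-enriched genes, which include Rasd2, Rarb, Syndig1l, Tac1 and Drd3, r was above 0 for 49 of 108 pairs and below 0 for 59. There were 11 pairs with an unadjusted exact permutation p under 0.05 and none after adjustment. Drd1 with Syndig1l, a synapse gene of the striatum, gave r = 0.76 (exact permutation p = 0.0344, adjusted over 108 pairs 0.468) and rho = 0.67 (exact permutation p = 0.0831). Without Control 2 and 4, the mice with the lowest Drd1, r was 0.39 over a narrower range of Drd1.

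Other pairs ran in opposite directions for genes grouped here as striatal. Which cells made these transcripts in the hippocampal RNA was not tested. Pde10a gave r = 0.83 with Rasd2, the striatal small GTPase Rhes, and -0.84 with Rarb, a retinoic acid receptor of the striatum. Without Control 3 and Hydroxyurea 4 these were 0.50 and -0.90. Rgs9 gave 0.74 with Tac1 and -0.64 with Syndig1l. Drd2 gave 0.75 with Sp9, a transcription factor of indirect pathway neurons, and 0.23 without Hydroxyurea 1 and 3.

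The 9 genes were also set against scores of 12 lists of cells and regions in or around the hippocampus. Of 108 pairs, 67 had r above 0, 9 had an unadjusted exact permutation p under 0.05 and none an adjusted one, the smallest being 0.083. That pair was Pde10a with the score of CA1 and CA3 pyramidal markers, at r = 0.96 (exact permutation p = 0.000769, adjusted 0.083) and rho = 0.79 (exact permutation p = 0.0279). Without Control 3 and Hydroxyurea 4 it was 0.73, and with median centring of the arrays 0.52. The pyramidal score itself ran only from -0.15 to 0.08, and the list's genes split 7 higher and 7 lower between the groups.

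Ppp1r1b followed the choroid plexus score at r = 0.77 (exact permutation p = 0.0275, adjusted 0.495; rho = 0.67), which fell to 0.38 without Hydroxyurea 4 and to -0.01 without Hydroxyurea 2 and 4. Six3 followed the lateral septum score at r = 0.72 (exact permutation p = 0.0347, adjusted 0.513) and rho = 0.81. It was 0.51 without Control 1 and 0.85 without Control 1 and Hydroxyurea 3, and within groups 0.54. Six3 also gave r = 0.67 with the thalamus and habenula score, 0.62 with the ependyma score and 0.62 with the choroid plexus score (exact permutation p from 0.0914 to 0.103, adjusted 0.713). Without Control 1 and Hydroxyurea 3 these were 0.87, 0.91 and 0.64. Drd1 ran against the dentate gyrus score at r = -0.75 and rho = -0.81, and r was -0.34 without Control 2 and 4. Pde10a went with that score at r = 0.71, and 0.23 without Control 3 and Hydroxyurea 4.

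The lowest r of the 108 was that of Rgs9 with the oligodendrocyte score, -0.82 (exact permutation p = 0.0147, adjusted 0.495), with rho = -0.90 (exact permutation p = 0.00456). Without Control 1 and Hydroxyurea 4 it was -0.85, and within groups -0.82. Rgs9 with the neocortex score gave r = -0.78 and rho = -0.81, and r was -0.55 without the same mice. Pde10a ran against the ependyma score at r = -0.77 (exact permutation p = 0.023, adjusted 0.495) and rho = -0.88 (exact permutation p = 0.00724), and r was -0.67 without Control 3 and Hydroxyurea 4.

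**Figure D4:**
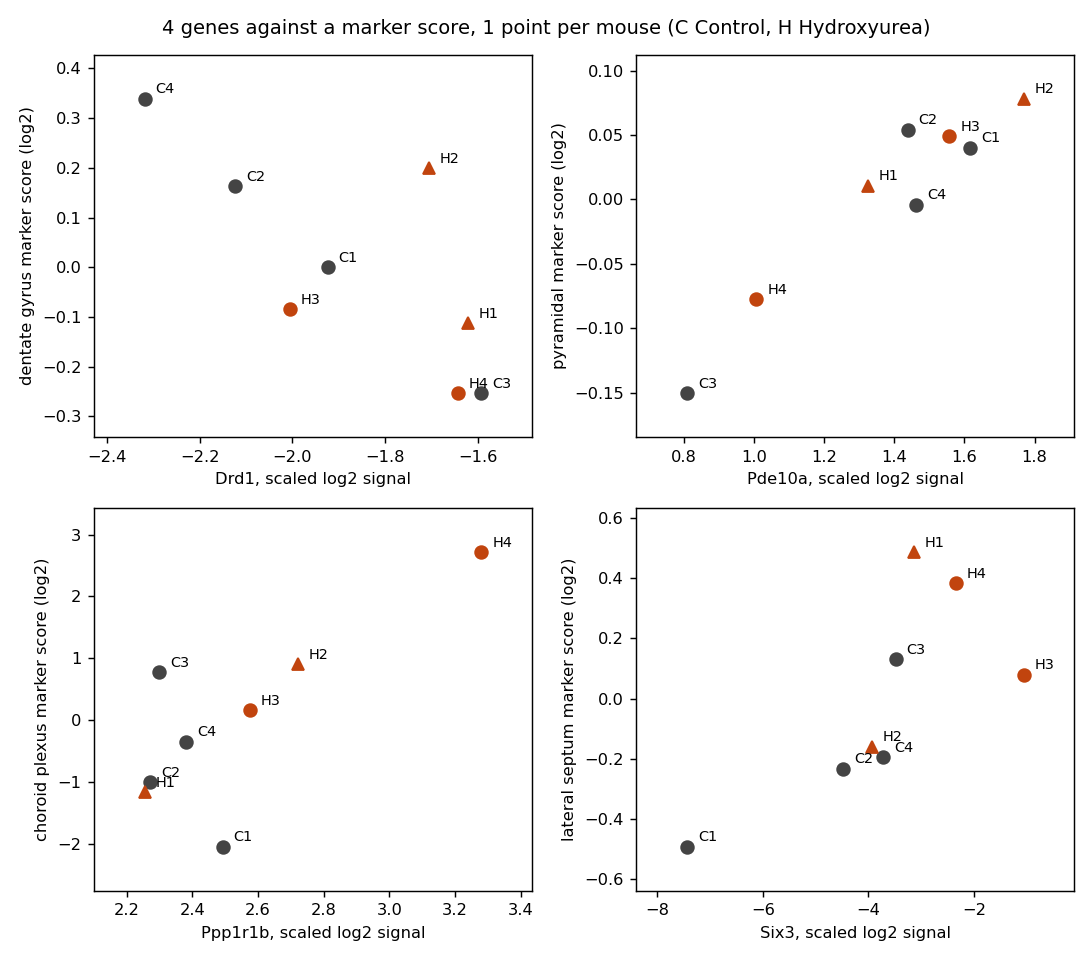
Scaled log2 signal of 4 of the genes (horizontal axes, log2 units) against a marker score (vertical axes, log2 units), 1 point per mouse, grey for Control (C) and orange for Hydroxyurea (H), triangles for 24 weeks. The highest Ppp1r1b and choroid plexus values are those of Hydroxyurea 4, the lowest Pde10a and pyramidal values those of Control 3, and the lowest Six3 and septum values those of Control 1.

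Dopamine arrives in the hippocampus on axons whose cell bodies lie in the midbrain and the locus coeruleus, and the transcripts for making it lie mostly in those cell bodies. Of the genes for dopamine synthesis, transport and breakdown, 8 of 13 read higher in Hydroxyurea, with a median of 0.05, and none passed the limma threshold. Th, tyrosine hydroxylase, was well above background on all 8 arrays and differed by 0.22 on the log2 scale ± 0.18 (SE; limma adjusted p = 0.703, 4 mice per group). Slc6a3, the dopamine transporter, was well above background on 3 Control and 4 treated arrays. Drd2 was the gene nearest to the midbrain dopamine score, at r = 0.81 (exact permutation p = 0.00538, adjusted 0.291) and rho = 0.93 (exact permutation p = 0.00223), and r was 0.86 without Hydroxyurea 1 and 3. Of the list behind that score, 7 of 9 tested read higher and En1, Foxa1 and Foxa2 were not tested. The score holds Slc6a3, whose values spanned 3.96 over the 8 mice, and Drd2 was not well above background in Hydroxyurea 4. How far the r of Drd2 with the score rests on signals near background was not tested.

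Downstream of the receptors, the list of dopamine receptor signalling held 43 genes, all tested. Of these 20 read higher and 23 lower, with a median of -0.02, and none passed the threshold. The unadjusted limma p was under 0.05 for 4 of the 43, near the share of all genes tested, 9.89%. All 4 were lower in Hydroxyurea, where 6.36% of all genes tested had such a p and were lower. These were Creb1, the cyclic AMP response factor, at -0.22 ± 0.06, Cdk5, a kinase of DARPP-32, at -0.25 ± 0.08, Crem, a relative of Creb1, at -0.17 ± 0.07, and Gnb5, the G protein subunit that partners RGS9, at -0.15 ± 0.06 (SE; limma adjusted p from 0.452 to 0.494, 4 mice per group). The groups did not overlap for 5 of the 43 genes, these 4 and Drd3, where 7.5% of all genes tested had such groups. The Drd3 probe was too dim in every treated mouse to count as detected. Its gap, from -6.292 in Hydroxyurea 3 to -6.185 in Control 3, thus rests on treated signals near background. Drd5, the D1-like receptor that hippocampal neurons express, read -0.23, -0.22, -0.93 and -0.14 in Control 1 to 4, against -0.38, -0.57, -0.60 and -0.79 in Hydroxyurea 1 to 4. Its difference was -0.21 ± 0.18 (SE; limma adjusted p = 0.719, 4 mice per group).

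The other striatal genes did not share the direction of the 9. Of the other striatum-enriched genes, 4 of 12 tested read higher, with a median of -0.06, and Ido1, Sh3rf2 and Isl1 were not tested. Syndig1l had the smallest p of them, at 0.41 ± 0.16 (SE; limma adjusted p = 0.494, 4 mice per group). Tac1, listed with them although hippocampal neurons also use it, was at -0.18 ± 0.13 (adjusted p = 0.673). Drd3, the D3 receptor of the ventral striatum, was not well above background on any treated array, and read -2.49 in Control 1 against -6.18 to -5.44 in the other Control mice. Of the striatal genes that hippocampal neurons also make, 8 of 21 read higher, with a median of -0.03. Among these, Dclk3, a striatal kinase, was at -0.29 ± 0.12 (adjusted p = 0.494), Chrm4, the M4 muscarinic receptor, at -0.40 ± 0.17 (adjusted p = 0.506), and Penk at -0.12 ± 0.14 (adjusted p = 0.795).

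As a description of likeness, the genes nearest to the mean of the 9 across the 8 mice, out of 15496 candidates, were Krtap8-1 (r = 0.99), Rab5c (0.97), Rsph14 (0.97), Armc6 (0.96) and Gdpd5 (0.96). The mean of the 9 is set largely by Six3, with which it gave r = 0.96, because Six3 had the widest range. Those nearest to Drd1 alone were Myom1 (0.98), Arhgap33 (0.96), Spef1l (0.96), Polh (0.95) and Sec14l3 (0.94). The top of a ranking of so many genes over 8 mice is high by selection, and no test was made of these values.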

How the data were processed

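Hippocampal RNA of 8 mice was read on 1-colour arrays. Per the file headers, Feature Extraction 12.0.3.1 wrote for every spot an intensity (its processed signal) from which background had been subtracted, with no normalization between arrays, and quality flags. The deposited value table is a score: log signals standardized within each array across 62976 features, as recomputing showed (largest difference 0.005); its column medians were -0.21 to -0.17, and it served for signs and counts. Its processing is not given in the sources used here.

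Of 55681 non-control probes, 28325 carried an accession of 1 RefSeq gene (GRCm38.p6; the headers name mm9), naming 21364 genes. From log2 of the intensity the 75th percentile of the array was subtracted. The probe with the highest mean stood for a gene. Genes entered the tests when well above background in 4 or more of the 8 mice, with values in 6 or more. Probes well above background made up 62.1% to 76.7% on Control and 59.7% to 69.0% on treated arrays, which with 4 arrays per group limits precision.

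Groups were compared with limma 3.58.1 in R 4.3.3, two-sided, adjusted by Benjamini-Hochberg over all 16616 genes; age in a fit with 3 group means. All permutation tests were exact and two-sided. The scripts were tested on simulated data. The labels do not say which mice shared a cage. All 9 genes are named, then up to 4 genes of each list by smallest p (8 for the striatal and dopamine receptor lists) and a fixed set of markers; part of these are given, and genes in correlations were named after their values were seen. Members, lists and tests were chosen with earlier results of these data known. Same-numbered mice did not deviate together (r from -0.21 to 0.20), so the numbers name mice only. Alternatives covered scaling, background, filters, probes, age, the replicate number, variance models and each array left out. Some items are not reported here.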

Additional observations from a re-analysis of the deposited data

Results flagged for a closer look

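None of the 9 genes had a mouse far outside its group by Dixon's criterion, applied to 18 groups of 4 mice. Among all 88 genes examined, 176 groups, 7 were marked, and chance marks about 1 in 20 groups. In Control, Tac1 was low in Control 1 (1.73, others 2.25 to 2.34), Slc6a3 was low in Control 1 (-6.51, others -4.00 to -3.56) and Drd5 was low in Control 3 (-0.93, others -0.23 to -0.14). In Hydroxyurea, Rgs7bp, which anchors RGS proteins at the membrane, was low in Hydroxyurea 4 (3.93, others 4.09 to 4.12). Gch1, which makes the cofactor of tyrosine hydroxylase, was high in Hydroxyurea 2 (-1.50, others -1.99 to -1.94). Lct, of the dentate gyrus list, was also high in Hydroxyurea 2 (2.92, others 2.34 to 2.37), and Otx2, a transcription factor of the choroid plexus, was high in Hydroxyurea 4 (2.20, others -0.48 to -0.04).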

How the results depend on the processing

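No gene and none of the 9 passed the limma threshold in any of 22 other settings. Drd1, Drd2, Adora2a, Ppp1r1b and Six3 kept their direction wherever they gave a value; Drd2 and Six3 gave none with the filter on all 8 arrays. The number of the 9 with an unadjusted p under 0.05, 0 as reported, was 1 with normexp, the deposited value table, robust variance and without Control 1 and Hydroxyurea 2 together, 2 with age as a covariate, 19-week mice and array weights, and 0 to 2 when 1 mouse was left out. With the replicate block it was 1, Six3, and no gene passed the threshold. Groups that did not overlap were 1 with normexp, 2 with 19-week mice, 2 without Control 1 and Hydroxyurea 2, and 0 to 1 without 1 mouse. The direction of small differences turned. Adcy5 became 0.00632 with quantile scaling, 0.0075 with z scores and the value table, 0.0192 with the mean of probes, and ran from -0.096 to 0.0286 without 1 mouse. Gpr6 became -0.0192 with median centring, -0.0084 with z scores and -0.01 with the value table. Pde10a became -0.0492 with age as a covariate or 19-week mice, and ran from -0.0907 to 0.22 without 1 mouse. Rgs9 became 0.0013 with z scores and 0.0025 with the value table, and ran from -0.128 to 0.0245 without 1 mouse. The median r between the 9 genes turned to -0.0622 with median centring, -0.0302 with z scores, -0.0366 with the value table and -0.0137 with the filter on all 8 arrays, and ran from -0.0326 to 0.236 without 1 mouse. For age, Gpr6 became -0.0303 with quantile scaling, -0.0505 with median centring, -0.0155 with z scores and -0.015 with the value table, and Adora2a 0.113 with normexp. Without 1 mouse the age differences ran from -0.0533 to 0.122 for Gpr6, -0.234 to 0.111 for Adora2a, -0.0207 to 0.343 for Drd1, -0.43 to 0.972 for Drd2, -0.0224 to 0.219 for Rgs9 and -0.00989 to 0.541 for Pde10a; without Control 1 and Hydroxyurea 2 together Rgs9 was -0.0224 and Gpr6 -0.0533. The cause of these changes was not tested. The correlations recomputed under alternatives were chosen after seeing the data. Normexp ran on the median signal of each spot.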
